A study of Mus musculus with 28 samples.

Results

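The comparison described here is of fat pads after 3 days of feeding: 2 arrays from mice on a diet with conjugated linoleic acid (CLA) against 2 arrays from mice on the control diet of the same day. The 4 arrays were chosen by their titles, out of 28 in the series. The series covers 7 days of feeding (1, 2, 3, 4, 7, 10 and 17), each with 2 CLA and 2 control arrays. The CLA mice ate 0.5% of the trans-10 cis-12 isomer, and the control mice ate the control diet, whose label gives no CLA. Mice of both diets were 9 weeks old, of the strain spelled C57BK/6J in the labels, and no genotype or other treatment is given. Per the labels, both retroperitoneal pads of 10 mice were pooled and total RNA (15 µg) was made into biotin-labelled cRNA. Whether paired arrays of a diet came from different pools is not given, so the p-values may measure technical spread alone. A pool also hides the spread between mice.

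White fat stores triglyceride in adipocytes, which make fatty acids from glucose and release them by lipolysis under the control of insulin and catecholamines. The trans-10 cis-12 isomer of CLA is known to lower fat mass in mice, and fat so depleted is known to take up macrophages. The pad is a mixture of adipocytes, immune cells, vessels and stroma, so in RNA from whole pads fewer cells of a type and less RNA per cell cannot be told apart.

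Values are log2 signals, so a difference of 1 is a 2-fold difference. Each log2 fold change is CLA minus control, with the standard error (SE) of a limma fit over all 28 arrays. A gene is said to have risen or fallen where its p, after Benjamini-Hochberg adjustment over 18194 genes, was under 0.05. Defining genes of adipocytes were high on all 4 arrays, as the tissue label says. Adipoq, the hormone adiponectin, had 12.67 and 12.88 on the CLA arrays and 13.77 and 13.70 on the control arrays. Fabp4, the fatty acid carrier of adipocytes, had 13.76 and 13.82 with CLA and 13.93 and 13.96 without. Replicates correlated across genes at 0.990 for CLA and 0.994 for control, within the 0.979 to 0.995 of the 14 groups. The lowest value, 0.979, was that of the control arrays of day 1. The first control array of day 2, which enters the spread of the fit and the comparisons of days, stood apart from its pair toward the CLA arrays. Its mean log2 signal was 8.43 over macrophage markers and 5.64 over mitosis genes, where the CLA arrays of day 2 had 8.82 and 9.12, and 6.74 and 6.45, and the other control array had 7.48 and 4.33. Ccl2 had 10.50 and 10.51 with CLA on day 2, against 10.09 and 5.92 in the controls. The 4056 genes called on day 3 were 4144 without that array. The 3′ minus 5′ difference of the Actb array controls, a sign of RNA integrity, was 1.07 and 1.44 with CLA and 1.10 and 1.81 in the controls. For Gapdh it was 0.46 and 1.20 with CLA and 0.15 and 0.32 in the controls. The other 24 arrays spanned 0.77 to 2.77 for Actb and 0.15 to 1.33 for Gapdh, so the Gapdh difference was higher on both CLA arrays of day 3 but inside the range of the series, and its part in the results was not tested.

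By day 3 the CLA pads had lost transcripts of adipocyte metabolism and gained transcripts of macrophages, chemokines, lysosomes and dividing cells. Of 18194 genes, 2048 (11.3%) were higher in CLA and 2008 (11.0%) were lower, 4056 (22.3%) in all, and the median log2 fold change over all genes was 0.00. Large differences were mostly rises. At 4-fold or more, 413 genes rose and 156 fell. At 8-fold or more the counts were 146 and 18, and at 16-fold or more 43 and 4. The count of changed genes was 2687 without the second control array of day 3 and 2843 to 3020 without any other 1 of the 4 arrays. Without a test, 3988 of the 45101 probe sets differed by 2-fold or more between the group means, 1982 higher and 2006 lower in CLA.

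**Figure D1:**
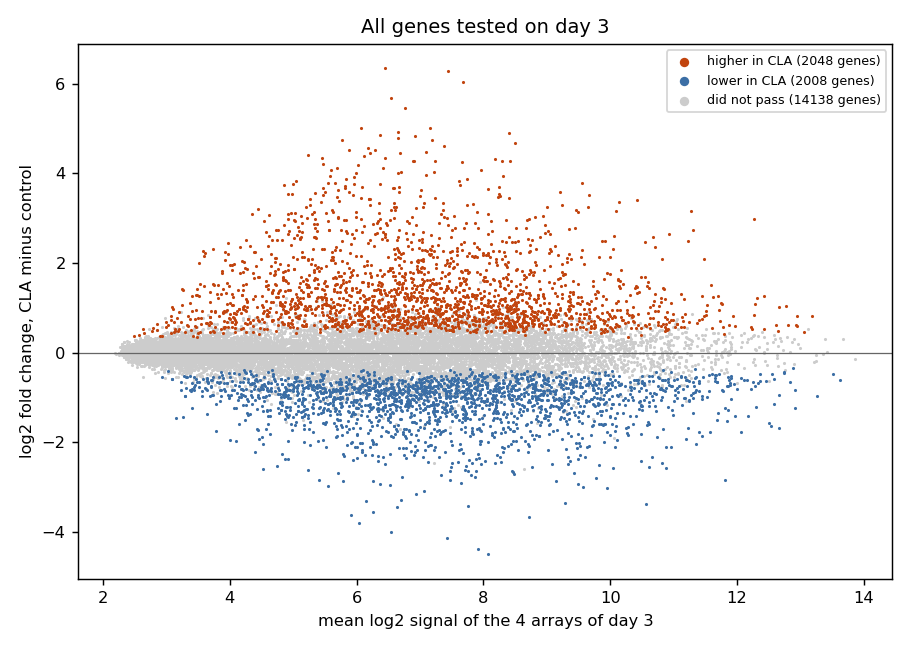
Log2 fold change of CLA minus control (vertical) against the mean log2 signal of the 4 arrays of day 3 (horizontal), 1 point a gene, with the 2048 genes higher in CLA in red, the 2008 lower in CLA in blue and the rest in grey. The rises reach 6.34 and the falls -4.50.

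The largest rise was that of Rnf128, a membrane-bound ubiquitin ligase first studied in T cells. Its log2 signal was 9.39 and 9.83 on the CLA arrays against 3.28 and 3.26 on the control arrays, a log2 fold change of 6.34 ± 0.66 (adjusted p = 1.24e-06), or 81.0-fold. Rgs1, a brake on G protein signalling in leukocytes, had 10.55 and 10.61 with CLA against 4.40 and 4.19 without (6.29 ± 0.63). In both genes the CLA pair lay over 5 log2 units above the control pair. Adam8, a metalloproteinase of myeloid cells, had 10.58 and 10.79 with CLA against 4.87 and 4.45 without (6.03 ± 0.64). Mmp12, the macrophage elastase, had 9.71 and 9.03 with CLA against 3.71 and 3.69 without (5.67 ± 0.77). Atp6v0d2, a proton pump subunit of macrophages and osteoclasts, had 9.55 and 9.43 with CLA against 4.27 and 3.81 without (5.45 ± 0.38). In control pads these 5 genes thus had 3.26 to 4.87, around the array medians of 4.1 to 4.2. RMA values compress a fold in that low part of the scale. In CLA pads the 5 genes stood far above those medians.

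Of the other 10 largest rises, 7 belong to immune cells or lipid handling. Chil3, a chitinase-like protein of macrophages, rose by 5.01 ± 1.05, and Ccl2, the chemokine that draws monocytes, by 4.90 ± 0.73. Il7r, the interleukin 7 receptor, rose by 4.84 ± 0.48, Clec4d, a C-type lectin of myeloid cells, by 4.83 ± 0.63, and Il1rn, the interleukin 1 receptor antagonist, by 4.79 ± 0.55. Nceh1, a hydrolase of cholesterol esters, rose by 4.75 ± 0.44. Gpnmb, a glycoprotein of lipid-laden macrophages, rose by 4.67 ± 0.34. The remaining 3 were cell cycle genes: Rrm2, a subunit of ribonucleotide reductase (5.01 ± 0.64), Birc5, or survivin, a passenger protein of mitotic chromosomes (4.92 ± 0.54), and Cdca5, or sororin, a cohesion factor (4.74 ± 0.50). The highest adjusted p among the 15 was 0.00136, for Chil3. Further probe sets of 7 of the 15 genes differed by over 1 from the one used, all in the same direction: 5.21 for Rnf128, 2.27 to 3.73 for Rrm2, 3.22 for Il7r, 2.80 to 2.81 for Il1rn, 3.27 to 3.69 for Nceh1, 2.56 for Cdca5 and 2.98 for Gpnmb.

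The largest fall was that of Cidea, a lipid droplet protein most abundant in brown fat. It had 5.43 and 6.22 with CLA against 10.50 and 10.16 without, a log2 fold change of -4.50 ± 0.41 (adjusted p = 2.9e-07), so that control pads held 22.7 times the CLA signal. Nnat, an imprinted membrane protein of adipocytes, had 5.37 and 6.06 with CLA against 9.79 and 10.42 without (-4.39 ± 0.58). Timp4, an inhibitor of metalloproteinases, had 5.50 and 5.22 with CLA against 9.30 and 9.69 without (-4.13 ± 0.33). In each of the 3 genes the diets were separated by more than the gap between the 2 arrays of either diet. Pon1, the esterase paraoxonase, fell by 4.01 ± 0.65, Chn1, a GTPase activator of Rac, by 3.80 ± 0.29, and Cox8b, a cytochrome oxidase subunit of brown fat and muscle, by 3.66 ± 0.52.

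Enzymes and transporters made up much of the rest. Acsm3, a medium-chain acyl-CoA synthetase, fell by 3.62 ± 0.25, Slc2a5, the fructose transporter, by 3.55 ± 0.23, Eci3, an enoyl-CoA isomerase, by 3.44 ± 0.21, and Elovl6, the elongase of palmitate, by 3.38 ± 0.24. Sult1a1, a phenol sulfotransferase, fell by 3.37 ± 0.22, B3galt2, a galactosyltransferase, by 3.15 ± 0.35, and Dpyd, which breaks down pyrimidines, by 3.09 ± 0.35. Net1, a guanine nucleotide exchange factor, fell by 3.32 ± 0.88 and Pth1r, the parathyroid hormone receptor, by 3.28 ± 0.37. The highest adjusted p of the 15 was 0.00885, for Net1. A further probe set gave -3.07 for Timp4 and -0.52 for Chn1, and further sets ran from -4.17 to -0.31 for Elovl6 and from -2.83 to 0.05 for Dpyd, so the size of the falls of Chn1, Elovl6 and Dpyd depends on the probe set taken.

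**Figure D2:**
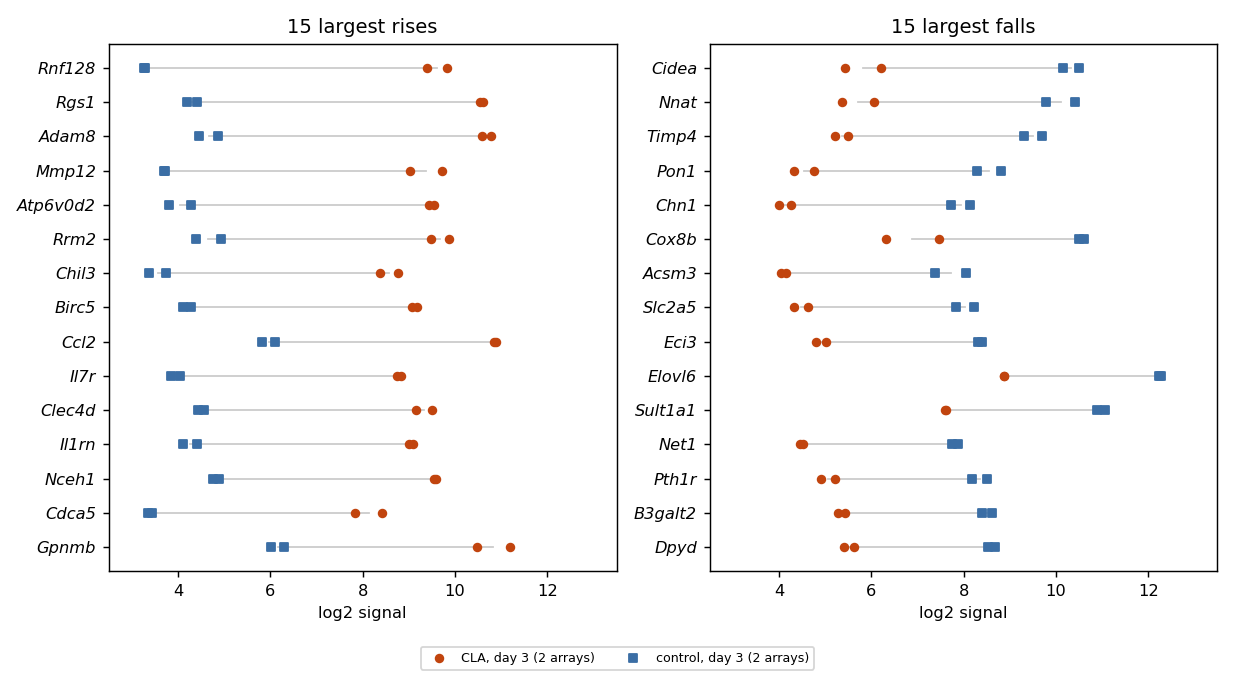
Log2 signal (horizontal) of the 15 largest rises (left) and the 15 largest falls (right) on day 3, with 1 circle for each CLA array, 1 square for each control array and a grey line between the group means. No CLA array overlaps a control array in any of the 30 genes, which the rule for choosing them required.

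Genes that mark adipocytes fell. Of 26 measured members, 20 fell and the median log2 fold change was -1.38, where the median of all genes was 0.00 and 11.0% of all genes fell. The mean log2 signal over the list was 9.40 and 9.71 on the CLA arrays against 10.92 and 11.07 on the control arrays. Beside Nnat, the steepest falls were those of Pck1, the enzyme of glycerol formation in fat, Slc2a4, the insulin-responsive glucose transporter, and Lgals12, a galectin of lipid droplets. Pck1 had 8.43 and 8.34 with CLA against 10.94 and 11.42 without (-2.79 ± 0.28, adjusted p = 7.61e-07). Slc2a4 had 6.74 and 7.52 with CLA against 9.74 and 9.96 without (-2.72 ± 0.37, adjusted p = 2.25e-05), and Lgals12 fell by 2.14 ± 0.20. Adipoq, described above, fell by only 0.96 ± 0.14. The 6 members that did not pass included Fabp4 at -0.15 ± 0.15 (adjusted p = 0.566), whose values lay near the top of the scale. A further probe set of Fabp4 gave -2.25, and further sets ran from -4.38 to 0.10 for Pck1 and gave -3.77 for Slc2a4.

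Among hormones secreted by fat, 6 of 11 fell, 1 rose and the median was -0.84. Retn, or resistin, had 11.69 and 11.74 with CLA against 13.30 and 13.40 without (-1.64 ± 0.18). Rbp4, the retinol carrier, had 10.04 and 10.43 with CLA against 12.23 and 12.11 without (-1.94 ± 0.23). Lep, the satiety hormone leptin, had 9.42 and 9.06 with CLA against 10.01 and 10.71 without (-1.12 ± 0.32, adjusted p = 0.0147). The single rise was that of Metrnl, a secreted factor of fat, muscle and macrophages, with 10.07 and 10.58 on CLA arrays against 7.33 and 7.27 on control arrays (3.02 ± 0.35), and further probe sets of Metrnl gave 0.08 to 1.66. Of 16 transcription factors of adipocyte formation, 8 fell and 1 rose, with a median of -0.76. Pparg, the master regulator of adipocytes, had 9.51 and 9.54 with CLA against 10.85 and 10.90 without (-1.35 ± 0.18). Its partner Cebpa had 9.35 and 10.07 with CLA against 11.00 and 11.23 without (-1.41 ± 0.29). Klf15, a factor that drives Slc2a4, fell by 2.65 ± 0.34 and Srebf1, the activator of lipid synthesis genes, by 1.95 ± 0.37. Id2, an inhibitor of helix-loop-helix factors, rose, with 8.46 and 8.46 on CLA arrays against 6.66 and 6.47 on control arrays, and 0.42 to 0.75 from further probe sets.

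Enzymes of fatty acid synthesis fell more than any other of the 61 lists by their median. Of 20 members 19 fell, the median was -1.62, and the one that did not pass also lay below 0. Elovl6 had 8.88 and 8.87 with CLA against 12.24 and 12.28 without (-3.38 ± 0.24, adjusted p = 2.79e-08). Thrsp, the lipogenic Spot 14 protein, had 10.10 and 10.67 with CLA against 13.20 and 13.26 without (-2.85 ± 0.22). Acaca, acetyl-CoA carboxylase, had 9.30 and 9.86 with CLA against 11.94 and 12.17 without (-2.48 ± 0.28). Every CLA array lay below every control array in these genes. Mlxipl, or ChREBP, the glucose-sensing activator of these enzymes, had 6.17 and 6.64 with CLA against 8.89 and 9.14 without (-2.61 ± 0.30). Fasn, the fatty acid synthase, had 11.45 and 12.19 with CLA against 13.38 and 13.62 without (-1.68 ± 0.30, adjusted p = 0.000292). Scd1, the desaturase that makes oleate, fell by 0.61 ± 0.16 from values near the top of the scale, and its further probe set gave -2.02. Further sets gave -3.62 for Acaca and -4.33 to -0.76 for Thrsp.

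Of 13 enzymes of triglyceride and glycerol formation 11 fell and 1 rose, with a median of -1.08. Mogat1, a monoacylglycerol acyltransferase, had 6.17 and 6.20 with CLA against 9.06 and 9.15 without (-2.92 ± 0.25). Lpin1, a phosphatidate phosphatase, fell by 1.80 ± 0.26 and Agpat2, an acyltransferase of the same path, by 1.41 ± 0.32. The lipases and receptors of lipolysis fell as well, with 8 of 12 lower and a median of -1.46. Pnpla2, the first triglyceride lipase, had 9.62 and 10.34 with CLA against 11.46 and 11.93 without (-1.72 ± 0.42, adjusted p = 0.00496). Lipe, the hormone-sensitive lipase, had 7.58 and 9.25 with CLA against 10.23 and 10.84 without (-2.12 ± 0.71, adjusted p = 0.0379). The CLA arrays of Lipe lay wider apart than its control arrays, and the call was lost under 5 of the alternatives tried. The receptors Mc2r, for corticotropin, and Hcar2, for hydroxybutyrate and niacin, fell by 2.29 ± 0.21 and 2.10 ± 0.27. Further probe sets gave -0.53 for Pnpla2 and 0.17 for Lipe.

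Coat proteins of the lipid droplet fell in 5 of 10 cases and rose in 1, with a median of -0.70. Besides Cidea, Cidec, which fuses droplets, fell by 1.68 ± 0.49, Plin4, a perilipin, by 1.50 ± 0.25, and Bscl2, or seipin, by 0.70 ± 0.18. Genes of lipoprotein lipase and fatty acid uptake mostly did not pass, with 4 of 13 lower, 1 higher and a median of -0.19. Over all genes 11.0% fell. Gpihbp1, the endothelial anchor of lipoprotein lipase, had 7.41 and 7.80 with CLA against 9.25 and 9.47 without (-1.75 ± 0.36). Lmf1, which matures the lipase, fell by 1.18 ± 0.42 (adjusted p = 0.0495, lost under 8 alternatives), Acsl3, an acyl-CoA synthetase, by 1.01 ± 0.33 and Vldlr, a lipoprotein receptor, by 0.77 ± 0.21. A further probe set of Lmf1 gave 0.10, and those of Vldlr ran from -1.87 to -0.67.

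Genes that burn fatty acids fell with those that make them. In fatty acid oxidation 15 of 25 fell and 2 rose, with a median of -0.74. Ehhadh, the peroxisomal bifunctional enzyme, fell by 2.07 ± 0.20 and Eci1, a mitochondrial enoyl-CoA isomerase, by 1.61 ± 0.22. Eci3 had 4.80 and 5.02 with CLA against 8.31 and 8.40 without. The rises were those of Acot1, an acyl-CoA thioesterase, with 5.94 and 5.35 on CLA arrays against 4.11 and 3.93 on control arrays (1.62 ± 0.19), and Cpt1a, the carnitine transferase of liver type, with 9.02 and 8.98 against 7.97 and 7.89 (1.07 ± 0.24). Subunits of the respiratory chain fell in 22 of 30 cases with a narrow spread, the median being -0.65. Sdha, of succinate dehydrogenase, fell by 1.09 ± 0.16, Ndufv1 and Ndufs3, of complex I, by 1.07 ± 0.23 and 0.93 ± 0.23, and Cox8a, of cytochrome oxidase, by 1.46 ± 0.37. Further probe sets ran from -1.05 to 0.03 for Sdha and from -1.46 to -0.03 for Cox8a.

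In the citrate cycle and the entry of pyruvate, 14 of 18 genes fell, with a median of -0.85. Pcx, the pyruvate carboxylase, had 8.70 and 9.98 with CLA against 11.68 and 12.10 without (-2.55 ± 0.50). It is read by an array control probe set. Mpc1, the mitochondrial pyruvate carrier, fell by 1.53 ± 0.23, Pdha1, of pyruvate dehydrogenase, by 1.40 ± 0.13 and Idh3g, of isocitrate dehydrogenase, by 1.26 ± 0.23. The breakdown of branched-chain amino acids, which feeds lipid synthesis in fat, was the one list of 10 or more genes in which all measured members changed in the same direction. All 17 fell, by 0.84 to 2.63, with a median of -1.46. Mccc2, a methylcrotonyl-CoA carboxylase subunit, had 6.34 and 6.55 with CLA against 9.32 and 8.84 without (-2.63 ± 0.45). Bckdha, of the branched-chain ketoacid dehydrogenase, had 6.40 and 7.25 with CLA against 9.06 and 9.41 without (-2.41 ± 0.36). Ivd, the isovaleryl-CoA dehydrogenase, fell by 2.23 ± 0.27 and Aldh6a1, of valine breakdown, by 2.10 ± 0.20.

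Insulin signalling and glycogen genes fell in 12 of 19 cases and rose in 2, with a median of -1.38. The 12 include Pdk1 (-1.01), a pyruvate dehydrogenase kinase and not an insulin signalling gene, named after its value was seen. Ppp1r3c, which targets a phosphatase to glycogen, fell by 2.35 ± 0.42 and Gys2, a glycogen synthase, by 2.04 ± 0.21. Trib3, a pseudokinase that binds AKT and a target of the stress factor CHOP, rose, with 7.11 and 6.88 on CLA arrays against 4.70 and 4.87 on control arrays (2.21 ± 0.29). Glycolysis and glucose transport were mixed, with 9 of 20 lower, 4 higher and a median of -0.38. Hk2, the hexokinase of insulin-sensitive tissue, had 8.49 and 8.42 with CLA against 10.43 and 10.21 without (-1.86 ± 0.28), whereas Hk3, a hexokinase of myeloid cells, had 8.52 and 8.92 with CLA against 6.48 and 6.43 without (2.27 ± 0.46). Slc16a1, a lactate carrier, fell by 1.52 ± 0.25, with -0.09 from a further probe set.

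Cholesterol synthesis fell in 6 of 19 cases, with a median of -0.60 and the steepest falls in Tm7sf2 (-1.85 ± 0.28), Sc5d (-1.21 ± 0.23), Pmvk (-1.20 ± 0.21) and Nsdhl (-1.15 ± 0.19), all enzymes of the path. Cholesterol efflux and storage split, with 4 of 13 higher, 4 lower and a median of 0.12. Here the hydrolases of cholesterol esters were higher. Nceh1 had 9.59 and 9.54 with CLA against 4.88 and 4.75 without, and Lipa, the lysosomal acid lipase, had 10.97 and 11.14 with CLA against 7.73 and 8.10 without (3.14 ± 0.35). Of 3 apolipoproteins, Apoe and Apoc1 fell. Apoe had 10.34 and 11.02 with CLA against 12.44 and 12.47 without (-1.77 ± 0.39), and Apoc1 had 6.75 and 7.50 with CLA against 10.09 and 9.51 without (-2.67 ± 0.40). The other, Apoc2, was at 0.12 ± 0.25 (adjusted p = 0.847) and was named after its value was seen.

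Genes of brown and thermogenic fat fell in 6 of 17 cases and rose in 2, with a median of -0.50. Cox8b had 6.31 and 7.47 with CLA against 10.50 and 10.60 without. Ucp3, an uncoupling protein of muscle and fat, fell by 2.29 ± 0.22, and Ppargc1a, the coactivator of mitochondrial genes, had 3.42 and 3.53 with CLA against 5.12 and 4.30 without (-1.24 ± 0.25). Ucp1, the uncoupling protein that makes heat in brown fat, had 5.40 and 5.46 with CLA against 6.68 and 6.75 without and did not pass (-1.28 ± 0.57, adjusted p = 0.126). Tmem26, a membrane protein used as a mark of beige adipocytes, rose, with 7.05 and 6.89 against 3.36 and 3.74 in controls (3.42 ± 0.30), and its further probe set gave 0.98.

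Genes that mark macrophages rose. Of 30 measured members 21 rose, 1 fell and the median was 1.56, where 11.3% of all genes rose. The mean log2 signal over the list was 9.04 and 9.29 on CLA arrays and 7.67 and 7.53 on control arrays, so the groups did not overlap. Fcgr1, the high-affinity receptor of immunoglobulin G, had 9.80 and 9.55 with CLA against 6.06 and 5.54 without (3.88 ± 0.53). Cd68, a lysosomal glycoprotein of macrophages, had 10.94 and 11.61 with CLA against 8.14 and 7.91 without (3.25 ± 0.40). Adgre1, a surface receptor used to identify mouse macrophages, had 10.53 and 11.13 with CLA against 8.16 and 7.96 without (2.77 ± 0.26). Mpeg1, a pore-forming protein, rose by 3.17 ± 0.35 and Ms4a7, a membrane protein of macrophages, by 2.79 ± 0.30. Clec7a, the receptor of beta-glucan, had 7.16 and 7.28 with CLA against 6.79 and 6.66 without and did not pass (0.49 ± 0.29, adjusted p = 0.285). Further probe sets gave 2.38 for Fcgr1 and 0.54 for Ms4a7.

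Genes of lipid-associated macrophages rose in 12 of 17 cases and fell in 1, with a median of 1.02. Gpnmb had 10.47 and 11.19 with CLA against 6.02 and 6.30 without, and Atp6v0d2 and Mmp12 are given above. Apoe, a lipoprotein that both macrophages and adipocytes make, is the member that fell. Markers of alternative and resident macrophages were mixed, with 7 of 16 higher, 4 lower and a median of 0.49. The 4 largest changes were all rises. The lowest member, Retnla, was at -1.77 and was named after its value was seen. Arg1, arginase 1, had 8.73 and 7.90 with CLA against 4.09 and 3.77 without (4.38 ± 0.81), and Chil3 had 8.77 and 8.37 with CLA against 3.74 and 3.37 without. Ccl8, a chemokine of tissue macrophages, rose by 2.95 ± 0.59 and Clec10a, a galactose lectin, by 2.35 ± 0.26.

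Lysosome and proton pump genes rose in 19 of 29 cases, with a median of 1.02. Ctss, the protease cathepsin S, had 12.58 and 12.77 with CLA against 10.07 and 9.81 without (2.73 ± 0.34). Gla, the alpha-galactosidase, rose by 2.98 ± 0.32, and its further probe sets gave 0.18 to 1.43. Of 7 genes of the superoxide-making oxidase of phagocytes, 5 rose and 1 fell, with a median of 1.78. Its membrane subunits Cyba and Cybb rose by 2.21 ± 0.36 and 1.84 ± 0.43, and its cytosolic partners Ncf4 and Rac2 by 1.78 ± 0.28 and 1.79 ± 0.29. Leukocyte integrins and adhesion genes rose in 12 of 17 cases, with a median of 0.79. Cd44, the hyaluronan receptor, had 11.62 and 11.26 with CLA against 7.65 and 7.68 without (3.77 ± 0.38). Itgb2, the beta chain of leukocyte integrins, had 10.62 and 10.85 with CLA against 8.01 and 7.94 without (2.76 ± 0.31), its partner Itgam rose by 1.59 ± 0.39, and Selplg, the selectin ligand, by 1.81 ± 0.25. Further probe sets gave 0.04 to 3.87 for Cd44 and 0.33 for Rac2.

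Toll-like receptors and C-type lectins rose in 16 of 22 cases, with a median of 1.31. Tlr13, a mouse receptor of bacterial ribosomal RNA, had 8.36 and 7.91 with CLA against 3.89 and 3.36 without (4.51 ± 0.53). Tlr1, a partner of Tlr2, had 7.87 and 7.79 with CLA against 4.43 and 3.72 without (3.75 ± 0.49). Clec4d had 9.51 and 9.15 with CLA against 4.56 and 4.44 without. Interferon response genes rose in 14 of 20 cases, with a median of 1.34. Mx1, an antiviral GTPase, rose by 2.54 ± 0.44, Oas1a, an oligoadenylate synthase, by 2.27 ± 0.32, and Irf8, a transcription factor that macrophages also use, by 1.84 ± 0.33. The part of macrophage RNA in the rises of these receptor and interferon genes was not tested.

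CC chemokines and their receptors rose in 11 of 17 cases and fell in 1, with a median of 2.10. Ccl2 had 10.84 and 10.88 with CLA against 6.10 and 5.82 without, or 29.9-fold (adjusted p = 5.35e-05). Ccl7, a monocyte chemokine, had 8.34 and 8.90 with CLA against 4.77 and 3.79 without (4.34 ± 0.70). Ccl12, a mouse chemokine for monocytes, rose by 3.58 ± 0.72 and Ccl3, a chemokine of macrophages, by 3.36 ± 0.49. CXC chemokines and their receptors rose in 6 of 15 cases, with a median of 0.17. Cxcl2, which draws neutrophils, had 6.15 and 6.84 with CLA against 3.00 and 4.12 without (2.94 ± 0.54). Cxcl10, an interferon-induced chemokine, rose by 2.28 ± 0.39, Cxcl1 by 0.89 ± 0.22 and the receptor Cxcr4 by 0.72 ± 0.24, and further probe sets of Cxcl1 gave 3.44 to 4.99.

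Among inflammatory cytokines most members did not pass. Of 29 interleukins, TNF family members and growth factors, 10 rose and the median was 0.36, where 11.3% of all genes rose. Il6, the acute phase cytokine, had 3.05 and 3.13 with CLA against 2.81 and 2.66 without and did not pass (0.35 ± 0.25, adjusted p = 0.397). Tnf had 5.44 and 5.62 with CLA against 4.94 and 4.71 without (0.70 ± 0.15, adjusted p = 0.00162). Il1b had 5.12 and 5.49 with CLA against 3.90 and 4.95 without (0.88 ± 0.31, adjusted p = 0.0478), a call lost under 9 alternatives. The inhibitors Il1rn and Il10 rose by more than Tnf and Il1b, but the CLA signal of Il10 was below that of Tnf. Il1rn had 9.01 and 9.10 with CLA against 4.11 and 4.41 without, and Il10, the deactivating interleukin, had 4.85 and 5.30 with CLA against 2.85 and 2.91 without (2.19 ± 0.22). The receptors Tnfrsf12a and Tnfrsf1b rose by 1.17 ± 0.30 and 1.11 ± 0.23, with -0.26 from a further probe set of Tnfrsf1b.

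Feedback genes of NF-kB and STAT3 rose in 8 of 18 cases, with a median of 0.90, among them Tnfaip2 (2.62 ± 0.40), the kinase gene Ikbke (2.15 ± 0.30), the coactivator gene Bcl3 (1.70 ± 0.33) and the inhibitor gene Nfkbie (1.60 ± 0.45). Further probe sets of Tnfaip2 gave -0.18 to 1.51. Acute phase proteins split, with 3 of 15 higher, 3 lower and a median of -0.24. Ptx3, a pentraxin, had 8.26 and 8.67 with CLA against 4.42 and 3.37 without (4.57 ± 0.45), with 0.18 from a further probe set, and Saa3, serum amyloid A3, had 8.93 and 9.01 with CLA against 7.24 and 6.42 without (2.14 ± 0.50). Orm1, orosomucoid, had 9.64 and 10.01 with CLA against 11.99 and 11.88 without (-2.11 ± 0.18). Enzymes of prostaglandins and leukotrienes rose in 5 of 17 cases and fell in 5, with a median of -0.02. Hpgds, the prostaglandin D synthase of blood cells, had 6.91 and 6.77 with CLA against 3.94 and 3.54 without (3.10 ± 0.25), while Ptges, the inducible prostaglandin E synthase, had 6.14 and 6.62 with CLA against 8.82 and 8.84 without (-2.45 ± 0.40). Alox5ap, which presents arachidonate to 5-lipoxygenase, rose by 2.48 ± 0.29 and Pla2g7, a phospholipase of macrophages, by 1.76 ± 0.29.

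Most markers of other leukocytes did not pass, where 11.3% of all genes rose and 11.0% fell. T and NK cell genes rose in 3 of 15 cases with a median of 0.08, B and plasma cell genes in 3 of 12 with 0.15, and dendritic cell and MHC class II genes in 2 of 14 with 0.08. Besides Il7r the members that rose were Gzma, a granzyme (1.35 ± 0.37), Cd28, a costimulator (0.80 ± 0.28), Blnk, an adaptor also found in macrophages (3.49 ± 0.38), Sdc1, a syndecan (2.47 ± 0.37, with 0.56 to 2.79 from further probe sets), Cd79b (0.73 ± 0.24), Cd40 (1.27 ± 0.31) and Flt3 (0.62 ± 0.18). The call was lost under 8 alternatives for Cd28, under 5 for Cd79b and Flt3 and under 4 for Gzma. Among neutrophil genes 1 of 12 passed and the median was 0.20; it was Mmp9, a gelatinase, which fell by 0.94 and was chosen for naming after its value was seen. S100a8, the calgranulin that fills neutrophils, had 7.30 and 6.84 with CLA against 5.60 and 6.55 without (0.99 ± 0.73, adjusted p = 0.423). Mast cell and eosinophil genes gave 1 fall in 14, that of the receptor Kit (-0.99, also named after its value was seen), and a median of 0.02, with Cpa3, a mast cell protease, at 0.05 ± 0.28 and Cma1, a chymase, at -0.30 ± 0.21.

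Cell cycle genes rose more than those of any other of the 61 lists by their median. Of 32 genes of mitosis 31 rose, with a median of 3.28, and the mean log2 signal over the list was 7.76 and 7.58 on CLA arrays and 4.33 and 4.36 on control arrays. Of 31 genes of DNA replication 29 rose, with a median of 2.30 and list means of 7.91 and 7.67 with CLA and 5.47 and 5.39 without. Mki67, the Ki-67 antigen of cycling cells, had 10.74 and 10.36 with CLA against 6.27 and 6.28 without (4.28 ± 0.52, adjusted p = 6.44e-06). Top2a, the topoisomerase that untangles chromosomes, had 9.37 and 9.37 with CLA against 5.08 and 5.12 without (4.27 ± 0.46). Ccnb2, a cyclin of mitotic entry, had 8.82 and 8.27 with CLA against 3.97 and 4.09 without (4.51 ± 0.47). In these genes the gap between the diets was far wider than that between replicates. Cdc20, which activates the anaphase-promoting complex, had 9.06 and 9.03 with CLA against 4.76 and 4.77 without (4.28 ± 0.55). Bub1, a kinase of the spindle checkpoint, had 7.50 and 7.38 with CLA against 3.04 and 3.01 without (4.42 ± 0.38).

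In DNA replication, Rrm2 had 9.87 and 9.47 with CLA against 4.92 and 4.39 without. Cdt1, which licenses origins, had 9.95 and 9.62 with CLA against 5.73 and 5.33 without (4.25 ± 0.51). Mcm5, of the replicative helicase, rose by 3.74 ± 0.46 and Uhrf1, which maintains DNA methylation, by 3.68 ± 0.32. Regulators of G1 were mixed, with 5 of 17 cyclins and inhibitors higher, 5 lower and a median of -0.10. Ccnd1, cyclin D1, had 9.86 and 9.61 with CLA against 7.11 and 7.44 without (2.46 ± 0.24), and its kinase partner Cdk6 rose by 2.16 ± 0.37. Gadd45b, a stress-induced growth regulator, rose by 1.84 ± 0.31, and Cdkn2c, an inhibitor that is high in mature adipocytes, fell by 1.59 ± 0.38. Further probe sets of these genes were often lower: -0.02 to 1.58 for Top2a, 0.78 to 2.67 for Cdc20, 0.39 for Bub1, 0.07 to 3.63 for Cdt1, 0.22 to 3.73 for Mcm5, 0.54 for Uhrf1, 0.26 to 2.14 for Cdk6 and 0.38 to 2.29 for Gadd45b. The cell type that holds the cell cycle RNA was not measured, and the markers of macrophages, given above, rose in the same pads.

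Genes of late cell cycle phases are known to carry CCAAT boxes and a cell cycle homology region, of which TTTGAA is the usual core, near their start. In the 300 bases from 250 before to 50 after each start in RefSeq's annotation (GRCm38.p6), searched on both strands, 21 of 28 promoters of the mitosis list (75.0%) held CCAAT, 19 (67.9%) held TTTGAA and 18 (64.3%) held both. The 28 promoters belong to 27 of the 32 genes. Over all 32851 promoters the shares were 37.4%, 17.9% and 6.95%. Of 31 promoters of 26 DNA replication genes, 16 (51.6%) held CCAAT, 3 (9.68%) held TTTGAA and 2 (6.45%) held both. With TTTAAA counted beside TTTGAA, the shares were 75.0% for mitosis, 25.8% for DNA replication and 27.6% for all. The strings can share at most an end letter, and a match describes letters, not a bound site. The promoters given are those of the 4 mitosis genes with the largest rises among those that hold both strings, on the strand of the gene, with capitals for CCAAT or its reverse complement ATTGG and for TTTGAA or its reverse complement TTCAAA. Ccnb2 lies at chr9:70421505-70421804, Cdc20 at chr4:118437294-118437593, Mki67 at chr7:135716330-135716629 and Top2a at chr11:99024140-99024439, all on the minus strand.
Ccnb2: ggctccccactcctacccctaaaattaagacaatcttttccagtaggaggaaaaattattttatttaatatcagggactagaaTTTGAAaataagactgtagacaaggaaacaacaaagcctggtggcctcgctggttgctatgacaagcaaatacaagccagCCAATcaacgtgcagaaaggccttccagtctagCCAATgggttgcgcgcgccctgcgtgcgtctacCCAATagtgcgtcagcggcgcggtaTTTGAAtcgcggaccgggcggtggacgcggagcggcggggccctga
Cdc20: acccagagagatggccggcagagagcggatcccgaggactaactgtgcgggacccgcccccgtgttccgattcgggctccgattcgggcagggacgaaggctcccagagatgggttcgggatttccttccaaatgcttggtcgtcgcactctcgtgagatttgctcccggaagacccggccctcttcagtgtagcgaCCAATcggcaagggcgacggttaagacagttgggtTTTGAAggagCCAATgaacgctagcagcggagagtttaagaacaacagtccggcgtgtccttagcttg
Mki67: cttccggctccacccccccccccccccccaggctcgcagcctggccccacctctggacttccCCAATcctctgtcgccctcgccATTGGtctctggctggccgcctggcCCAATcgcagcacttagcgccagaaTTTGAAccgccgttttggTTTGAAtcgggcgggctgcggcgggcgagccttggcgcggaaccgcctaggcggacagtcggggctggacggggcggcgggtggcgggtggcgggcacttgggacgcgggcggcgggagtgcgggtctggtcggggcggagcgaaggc
Top2a: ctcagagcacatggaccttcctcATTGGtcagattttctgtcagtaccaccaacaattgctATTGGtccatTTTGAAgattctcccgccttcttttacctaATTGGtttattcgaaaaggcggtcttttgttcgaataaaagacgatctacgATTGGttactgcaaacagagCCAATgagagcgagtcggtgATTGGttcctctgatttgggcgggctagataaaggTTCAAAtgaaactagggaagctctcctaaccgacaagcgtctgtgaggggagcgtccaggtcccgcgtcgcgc
CCAAT on either strand occurs 3 times in the Ccnb2 promoter, 2 times in Cdc20, 3 times in Mki67 and 6 times in Top2a, and TTTGAA on either strand 2, 1, 2 and 2 times.

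**Figure D3:**
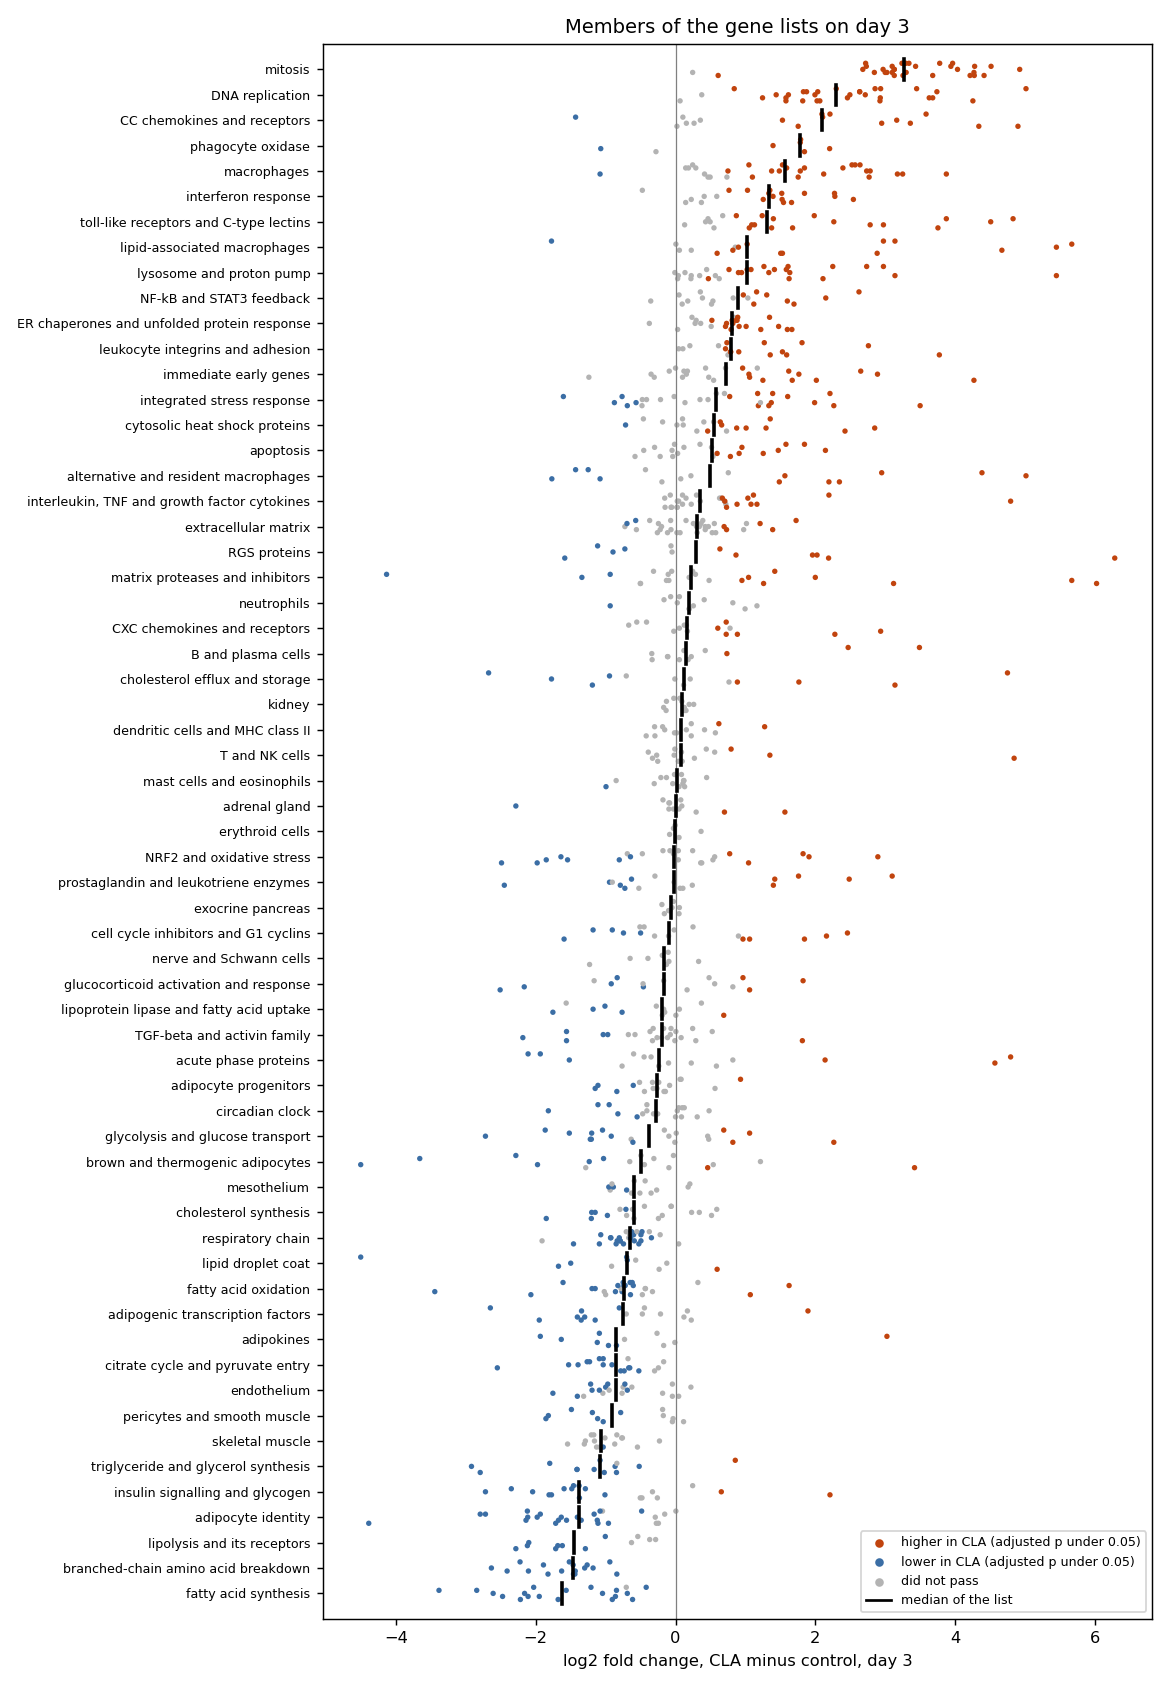
Log2 fold change of CLA minus control on day 3 (horizontal) for each measured member of the 61 gene lists (rows), with members higher in CLA in red, members lower in CLA in blue, those that did not pass in grey and a black bar at the median of the list. The rows run from mitosis at the top, with a median of 3.28, to fatty acid synthesis at the bottom, with -1.62.

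Stress genes rose in part, where 11.3% of all genes rose and 11.0% fell. Immediate early genes rose in 11 of 25 cases, with a median of 0.72. Fos, the AP-1 subunit, had 10.79 and 10.08 with CLA against 6.76 and 5.57 without (4.27 ± 0.57, adjusted p = 1.7e-05). Fosl1, a related subunit, rose by 2.89 ± 0.38, Egr2, a zinc finger factor, by 2.65 ± 0.41 and Ier5 by 2.02 ± 0.33. In the integrated stress response 11 of 27 rose and 5 fell, with a median of 0.58 and the lowest member at -1.605. The largest changes were rises. Atf3, a factor induced by many stresses, had 8.53 and 8.96 with CLA against 5.50 and 4.99 without (3.50 ± 0.36). Ddit3, or CHOP, had 8.20 and 8.32 with CLA against 6.62 and 6.69 without (1.60 ± 0.23). Mthfd2, of mitochondrial folate metabolism, rose by 2.27 ± 0.25 and Slc7a1, a carrier of cationic amino acids, by 1.99 ± 0.40. Further probe sets gave 1.31 for Fosl1, 0.21 to 0.74 for Ier5, 0.08 for Ddit3 and -0.13 to 1.70 for Slc7a1.

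Chaperones of the endoplasmic reticulum rose in 16 of 24 cases, with a median of 0.82. Hspa5, the chaperone BiP, had 13.06 and 12.79 with CLA against 11.74 and 11.67 without (1.22 ± 0.18). The stress genes Creld2, Manf and Sdf2l1 rose by 1.67 ± 0.26, 1.48 ± 0.26 and 1.34 ± 0.38. Pdia4, a disulfide isomerase, rose by 1.60 ± 0.33, with -0.13 from a further probe set. Cytosolic heat shock genes rose in 9 of 19 cases and fell in 1, with a median of 0.55. The inducible Hsp70 genes led. Hspa1b had 10.34 and 10.44 with CLA against 7.98 and 7.10 without (2.85 ± 0.37), and Hspa1a, a near-identical copy with which it may share probe signal, rose by 2.42 ± 0.27. The cochaperone Dnajb1 rose by 1.35 ± 0.21 and the small heat shock protein gene Hspb1 by 1.29 ± 0.32.

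Targets of NRF2 and other oxidative stress genes rose in 5 of 25 cases and fell in 7, with a median of -0.02. Over all genes 11.3% rose and 11.0% fell. Hmox1, heme oxygenase 1, had 8.44 and 9.06 with CLA against 6.14 and 5.57 without (2.90 ± 0.65), and Srxn1, a sulfiredoxin, rose by 1.91 ± 0.38, with 0.86 to 1.51 from further probe sets. Gsta3, a glutathione transferase, fell by 2.49 ± 0.22, and Sod3, the extracellular superoxide dismutase, fell by 1.98 ± 0.70 (adjusted p = 0.0474, lost under 5 alternatives). Apoptosis genes rose in 9 of 21 cases, with a median of 0.52. The BH3-only killers Bcl2l11 and Pmaip1 rose by 2.15 ± 0.50 and 1.84 ± 0.27, Apaf1, of the apoptosome, by 1.58 ± 0.30, and the inflammatory caspase gene Casp4 by 1.47 ± 0.24. Further probe sets of Bcl2l11 gave 0.89 to 1.75.

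Matrix genes mostly did not pass, where 11.3% of all genes rose and 11.0% fell, 22.3% in all. Of 34 extracellular matrix genes 5 rose and 2 fell, with a median of 0.30. Tnc, tenascin C, rose by 1.73 ± 0.33, Thbs1, thrombospondin 1, by 1.39 ± 0.25, Postn, periostin, by 1.21 ± 0.14 and Col5a2, a fibrillar collagen, by 0.73 ± 0.21, while further probe sets of Tnc and Thbs1 gave -0.07 and 0.16. Of 22 matrix proteases and their inhibitors 8 rose and 3 fell, with a median of 0.22. Timp1, an inhibitor of metalloproteinases, had 7.97 and 7.86 with CLA against 4.80 and 4.79 without (3.12 ± 0.75, adjusted p = 0.00434), opposite to Timp4. Members of the TGF-beta and activin family fell in 5 of 23 cases and rose in 1, with a median of -0.20. Inhbb, an activin subunit of adipocytes, had 6.12 and 5.86 with CLA against 7.90 and 8.45 without (-2.19 ± 0.29). Its receptor Acvr1c and the inhibitor Smad6 each fell, by 1.56 ± 0.45 and 1.56 ± 0.33, and Tgfb1 rose by 1.81 ± 0.63 (adjusted p = 0.0433, lost under 7 alternatives). Further probe sets gave -0.46 for Inhbb, -0.07 for Tgfb1 and -2.68 to -1.23 for Acvr1c.

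Genes of vessels fell along with those of adipocytes. Endothelial genes fell in 9 of 20 cases, with a median of -0.86. Kdr, the main VEGF receptor, had 6.03 and 6.38 with CLA against 7.17 and 7.63 without (-1.20 ± 0.25). Cldn5, of endothelial tight junctions, fell by 1.22 ± 0.39 and Tie1, a receptor kinase, by 1.41 ± 0.47. Pericyte and smooth muscle genes fell in 7 of 12 cases, with a median of -0.91. Cspg4, the NG2 proteoglycan, had 5.75 and 5.65 with CLA against 7.21 and 7.83 without (-1.82 ± 0.31). Mcam, an adhesion molecule, fell by 1.85 ± 0.35, Kcnj8, a potassium channel, by 1.49 ± 0.19 and Abcc9, its partner subunit, by 1.19 ± 0.22. Markers of adipocyte progenitors were less affected, with 4 of 17 lower, 1 higher and a median of -0.26, where 11.0% of all genes fell. Zfp423, a factor of preadipocytes, fell by 1.15 ± 0.30, Pi16 by 1.11 ± 0.38 and Ccn5 by 0.84 ± 0.14, and Bmper, which binds bone morphogenetic proteins, rose by 0.93 ± 0.24.

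Genes of neighbouring tissues mostly did not pass, where 22.3% of all genes passed. Skeletal muscle genes had a list mean of 7.29 and 8.52 on CLA arrays and 9.40 and 8.40 on control arrays, so the groups overlapped. Of its 16 members 1 passed, Des, which smooth muscle also expresses (-1.03, named after its value was seen), and the median was -1.06. Myl1, a myosin light chain, had 9.96 and 11.33 with CLA against 12.22 and 11.24 without (-1.08 ± 0.53). Tnnc2, a troponin of fast muscle, was at -0.77 ± 0.88. Mesothelial genes fell in 3 of 13 cases, with a median of -0.59, namely Krt19 (-0.95 ± 0.22), Upk1b (-0.89 ± 0.28) and Igfbp5 (-0.70 ± 0.25). Of these calls that of Igfbp5 was lost under 12 alternatives and that of Upk1b under 7. By limma none of 11 kidney, 8 exocrine pancreas and 5 erythroid genes passed, none of them at an unadjusted p under 0.05 either, and none of 8 nerve and Schwann cell genes passed, 2 at an unadjusted p. Their medians were 0.09, -0.06, 0.00 and -0.16. Examples are Aqp2 of kidney (0.12 ± 0.20), Slc12a3 of kidney (0.26 ± 0.19), Cela1 of pancreas (-0.16 ± 0.17), Cela3b of pancreas (-0.05 ± 0.15), Alas2 of red cells (-0.09 ± 0.34), Slc4a1 of red cells (0.36 ± 0.19), Mbp of myelin (-1.23 ± 0.47, adjusted p = 0.0699) and Pmp22 of myelin (0.33 ± 0.16). Adrenal genes gave 2 rises and 1 fall in 12 and a median of 0.01: Star, the carrier of cholesterol into mitochondria, rose by 1.56 ± 0.30 and Pnmt, of adrenaline synthesis, by 0.70 ± 0.22, and Mc2r, also a gene of adipocytes, fell.

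Clock genes fell in 5 of 18 cases, with a median of -0.28, where 11.0% of all genes fell. The falls were led by Nr1d1, the repressor REV-ERB alpha (-1.82 ± 0.48), Bhlhe40 (-1.11 ± 0.26), Rora (-0.95 ± 0.29) and Cry2 (-0.82 ± 0.17). The call of Rora was lost under 5 alternatives. Glucocorticoid genes rose in 3 of 15 cases and fell in 5, with a median of -0.17. Hsd11b1, which makes active glucocorticoid inside fat, had 8.46 and 8.67 with CLA against 11.08 and 11.07 without (-2.51 ± 0.19, adjusted p = 6.36e-08). Zbtb16, a glucocorticoid-induced factor, fell by 2.17 ± 0.49, whereas the metallothionein gene Mt2 rose by 1.82 ± 0.30 and the phosphatase gene Dusp1 by 1.06 ± 0.24. RGS proteins rose in 6 of 12 cases and fell in 4, with a median of 0.29 and the lowest member at -1.585. Besides Rgs1 the rises were led by Rgs18 (2.19 ± 0.46), Rgs2 (2.02 ± 0.36) and Rgs10 (1.96 ± 0.30). Further probe sets gave -1.12 to -0.58 for Zbtb16, -1.29 to 0.15 for Rora and 0.07 to 1.95 for Rgs2.

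Day 3 was then set against its neighbours. The number of genes changed by CLA was 3420 on day 1, 1852 on day 2, 4056 on day 3 and 4379 on day 4, and 3151, 3687 and 3688 on days 7, 10 and 17. Without the first control array of day 2, which stood apart, day 2 had 2434. Of the 2048 rises of day 3, 823 (40.2%) were also rises on day 2, where they made up 93.4% of that day's rises. With day 4 the overlap was 1759, or 85.9% of day 3's rises and 75.6% of day 4's. Of the 2008 falls, 891 (44.4%) were shared with day 2 and 1521 (75.7%) with day 4, or 91.8% and 74.2% of those days' falls. Without that control array, 1209 rises (57.2% of day 3's and 88.4% of day 2's) and 968 falls (47.7% and 90.7%) were shared with day 2. No gene called on day 3 was called in the opposite direction by limma on day 2 or day 4 (1 on day 2 without that array), and on day 1 73 rises and 31 falls of day 3 were. On all 7 days 614 genes were called in the same direction, and 348 of day 3's calls, 147 rises and 201 falls, were made on no other day.

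The test of the difference itself gave few genes. Against day 2, the CLA effect of day 3 differed for 17 genes (0.0934% of those tested), with 16 above and 1 below, and 1088 at an unadjusted p under 0.05. Hmga2, a chromatin protein of growing cells, had the largest difference and the only one past an adjusted p of 0.01. Its log2 fold change was 4.26 ± 0.26 on day 3, against 0.92 on day 2, a difference of 3.34 ± 0.36 (adjusted p = 0.000364). The difference was 3.14 ± 0.54 for Atp6v0d2, 2.82 ± 0.48 for Gpnmb, 2.37 ± 0.45 for Cdca3, a mitotic regulator, 2.37 ± 0.36 for Serpinb6b, a protease inhibitor, and 2.12 ± 0.35 for Hpgds. The 1 gene below was Sec61a2, of the translocon of the endoplasmic reticulum, with -0.72 on day 3 against 0.30 on day 2 (-1.02 ± 0.19, adjusted p = 0.0475). The first control array of day 2, which stood apart, was raised in several of these genes: Atp6v0d2 had 7.83 and 7.38 with CLA on day 2, against 6.20 and 4.40 in the controls, Gpnmb had 7.50 and 8.83 against 6.80 and 5.84, and Cdca3 had 6.63 and 6.00 against 5.49 and 4.44. Without that array the difference from day 2 was 3.11 for Hmga2, 2.245 for Atp6v0d2, 2.345 for Gpnmb and 1.845 for Cdca3. For Serpinb6b, Hpgds and Sec61a2 it was 2.11, 1.895 and -0.92. All of these differences were smaller than with all arrays. The count of genes that differed fell without that control array, and it also fell without any 1 array of day 3. Without 1 array of day 3 the count was 8 (first CLA array), 2 (second CLA array), 2 (first control array) or 1 (second control array).

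Against day 4, 0 genes (0.0%) differed by limma, 476 at an unadjusted p under 0.05, and the lowest adjusted p was 0.877. A p that misses the threshold does not show that the 2 days are alike: the median SE of this difference over all genes was 0.28 on the log2 scale. The list medians show where the days lie. Mitosis genes had medians of 0.03, 1.66, 3.28 and 3.45 on days 1 to 4 and of 1.82, 1.66 and 1.47 on days 7, 10 and 17. DNA replication genes had -0.25, 1.29, 2.30 and 2.12, then 0.97, 0.94 and 1.06. Macrophage genes had 0.33, 1.11, 1.56 and 2.05, then 2.21, 2.08 and 2.35, so that their day 3 value lay below all later days. Without the first control array of day 2, the day 2 medians were 2.24 for mitosis, 1.83 for DNA replication, 1.67 for macrophages and -1.16 for adipocyte identity, so that macrophage genes were then no lower on day 2 than on day 3. Adipocyte identity genes had -1.27, -0.90, -1.38 and -1.36, then -1.20, -1.57 and -1.53. No test was made of these medians.

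**Figure D4:**
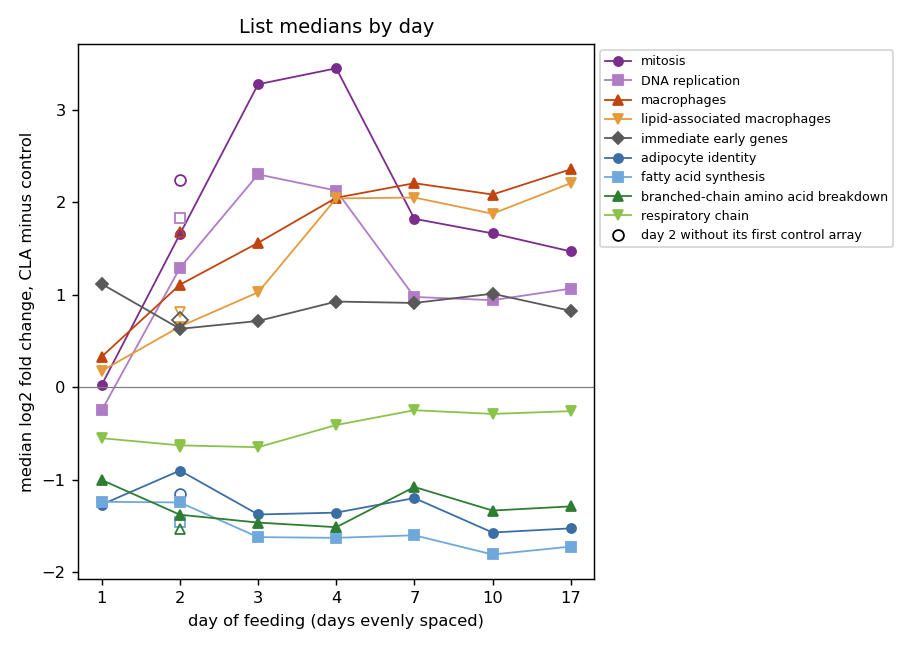
Median log2 fold change of CLA minus control (vertical) of 9 gene lists on each day of feeding (horizontal, days evenly spaced and not to scale), 1 line a list, with open markers for day 2 without its first control array. The mitosis and DNA replication lines are highest on days 3 and 4, with 3.28 and 2.30 on day 3, while the macrophage line goes on to 2.35 on day 17.

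Against the mean effect of the 6 other days, 114 genes (0.627%) differed, 95 above and 19 below, and 1458 at an unadjusted p under 0.05. The count rested on the day 3 arrays: it was 34 and 73 without the first or second CLA array and 11 and 27 without the first or second control array, and it was 202 without the first control array of day 2. Of the mitosis list 16 of 32 and of the DNA replication list 9 of 31 were among the genes above. The largest were Hmga2 (2.47 ± 0.28), Rad51ap1, of homologous recombination (2.38 ± 0.53), Ncapg, of condensin (2.33 ± 0.41), Kif20b, a kinesin (2.21 ± 0.41), Cep55, of abscission (2.19 ± 0.42), and Tacc3, of the spindle (2.14 ± 0.28). Hmga2 had 9.05 and 8.99 with CLA against 4.96 and 4.55 without on day 3, and its effect by day was -0.06, 0.92, 4.26, 3.88, 3.11, 1.82 and 1.09. Ncapg had 7.65 and 7.51 with CLA against 3.34 and 3.39 without. In these 6 genes day 3 had the highest effect of the 7 days, followed by day 4. Further probe sets of Hmga2 gave 0.44 to 4.82 on day 3, those of Ncapg 1.54, those of Kif20b 0.01 to 0.32 and those of Cep55 1.18.

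The genes below were mostly ones with higher effects on later days. Ucp1 differed by -2.92 ± 0.61 (adjusted p = 0.0289), its effect by day being -2.13, -1.06, -1.28, 0.10, 4.33, 4.70 and 3.85. Cidea differed by -2.61 ± 0.44, with -4.50 on day 3 and 0.23, 0.28 and -0.89 on days 7, 10 and 17. Fabp3, the fatty acid carrier of heart and brown fat, differed by -2.45 ± 0.50, with -0.53 on day 3 and 4.61 on day 10. Clec7a differed by -2.01 ± 0.32, with 0.49 on day 3 and 4.09 on day 17. In these 4 genes the day 3 value is low beside days 7 and 10. Adcy10, the soluble adenylate cyclase, had 3.46 and 3.00 with CLA against 5.71 and 5.95 without and was lowest on day 3 itself (-2.60 ± 0.23), which differed from the other days by -1.59 ± 0.25. Its CLA level on day 3 was like that of day 4 (3.09 and 3.30), and its control level on day 3 was above the 4.07 to 5.12 of the other days' controls. Cnmd, a cartilage protein, differed by -1.37 ± 0.26.

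**Figure D5:**
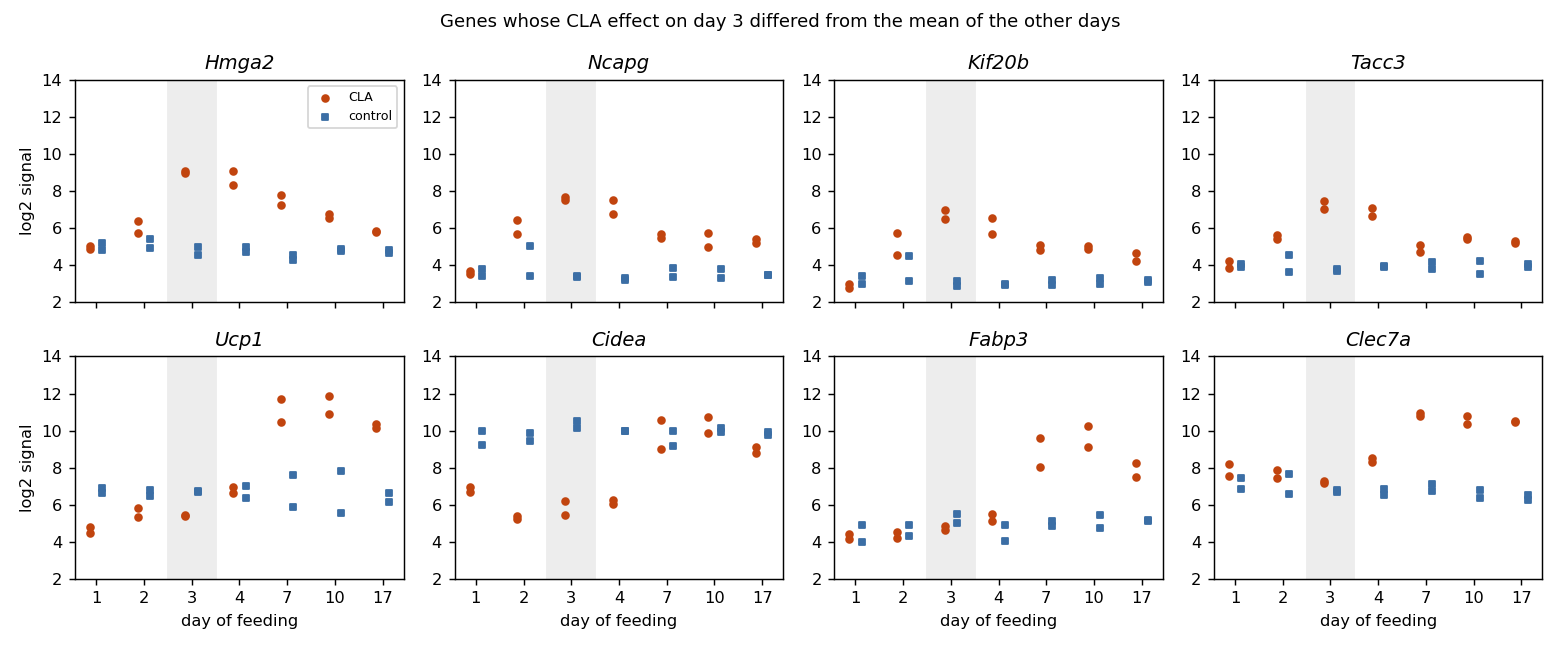
Log2 signal (vertical) of 8 genes whose CLA effect on day 3 differed from the mean of the other days, by day of feeding (horizontal, days evenly spaced), with a circle for each CLA array, a square for each control array and day 3 shaded. Hmga2, Ncapg, Kif20b and Tacc3 have their widest gap between diets on day 3, and the CLA arrays of Ucp1, Fabp3 and Clec7a lie above the control arrays on days 7, 10 and 17, while those of Cidea lie far below them through day 4.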

How the data were processed

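Total RNA of pooled pads was hybridised to 28 Affymetrix arrays. The values are the deposited log2 signals of 45101 probe sets, made by the authors with RMA per the submitters' processing notes, its version and settings not being given in the sources used here. They ran from 1.90 to 14.18 with array medians of 4.1 to 4.2. RMA fits all arrays together, so no array is independent of the rest, and the 2 arrays a group limit the precision.

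Of the probe sets, 34958 had 1 gene in the platform annotation, 932 several and 9211 none, and 34754 were matched to RefSeq symbols (GRCm38.p6). Each of 18194 genes was represented by its probe set with the highest mean over all arrays, and 9012 genes had further ones. In limma 3.58.1 (R 4.3.3) a linear model of 14 groups of diet and day was fitted to all 28 arrays (14 residual degrees of freedom), with moderated tests of the CLA effect on day 3 and of its difference from day 2, from day 4 and from the mean of the other 6 days. Benjamini-Hochberg adjustment ran over all genes, with a threshold of 0.05, and the procedure was tested on simulated data. Tables and plots used Python 3.11.15, pandas 2.3.3 and matplotlib 3.10.9.

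The 61 lists (1015 of 1096 genes measured) and the comparison were chosen with earlier results of these data known. Named genes were the 15 largest rises and 15 largest falls without overlap between diets, the 4 largest changes of each list (the 2 members with the highest level where fewer than 2 passed), the 6 largest differences from other days in each direction, and a set of well-known fat, immune and stress genes. Predicted genes were left out. Alternatives covered the arrays fitted, scaling, dim genes, the choice of probe set, the variance model, a replicate block, the threshold and leaving out single arrays. Some genes are not reported here.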

Additional observations from a re-analysis of the deposited data

Results flagged for a closer look

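The CLA effect of day 3 differed from that of day 2 for 17 genes and from the mean of the other 6 days for 114 genes by limma's test of the difference. The differences from day 2 were 3.34 for Hmga2, 3.14 for Atp6v0d2, 2.82 for Gpnmb, 2.37 for Cdca3, 2.37 for Serpinb6b, 2.12 for Hpgds and -1.02 for Sec61a2 on the log2 scale. Without the first control array of day 2 these differences were smaller and fewer genes differed from day 2, as given above. Those from the other days were 2.47 for Hmga2, 2.38 for Rad51ap1, 2.33 for Ncapg, 2.21 for Kif20b, 2.19 for Cep55 and 2.14 for Tacc3. Below the other days were Ucp1 by -2.92, Cidea by -2.61, Fabp3 by -2.45, Clec7a by -2.01, Adcy10 by -1.59 and Cnmd by -1.37.

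Probe sets without a single gene name were outside the comparison. Of 10092 such probe sets, array controls left out, 479 (4.75%) changed on day 3, 259 higher in CLA and 220 lower, with log2 fold changes from -3.15 to 6.44.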

How the results depend on the processing

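The 4056 genes changed on day 3 became 6218 with every probe set tested on its own and 2106 at 2-fold or more, and ran from 2687 to 4144 with 1 array left out. The 17 differences from day 2 became 10 with arrays centred on their medians, 10 with quantile normalisation, 5 with dim genes left out, 5 with every probe set on its own, 32 with the mean of a gene's probe sets and 1 at an adjusted p under 0.01, and ran from 1 to 8 with 1 array left out. The 114 differences from the other days became 33 with dim genes left out, 180 with the mean of probe sets and 31 at an adjusted p under 0.01, and ran from 11 to 202 with 1 array left out. No gene differed from day 4 by limma under any alternative. The 2-fold count of 3988 probe sets became 2202 genes with 1 probe set a gene. Losses of 5 or 6 alternatives not given above were those of Acsl3, Col5a2, Cnmd and Sdf2l1 (5 each) and Cxcr4, Pi16 and Tie1 (6 each), and Pnmt was lost under 7. The causes were not tested. The replicate block of day and number gave 5471, 158 and 399 genes for day 3, the difference from day 2 and that from the other days. A fit without the arrays of days 1 and 2, added after the data were seen, gave 4996 genes for day 3. Deviations of same-numbered arrays correlated positively on all 7 days, at 0.098 to 0.57. The numbers were not taken as pairs, since the labels name nothing shared and day 7 fell short of the 0.1 required of every day.

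Further probe sets taken singly were not counted here, and some, such as those of Lipe and Tgfb1, had the opposite sign. With the probe set used or the mean of a gene's probe sets, none of the 250 named genes reversed under these alternatives. Of them 232 were called, and 179 of these kept their call under every one of the 16 alternatives in which they were tested. Named genes with a mean under log2 5 went untested in the alternative that left dim genes out. The count of called list genes, 543, stayed within 405 to 622. Limits are the 2 arrays a group, pooled mice, unknown independence of pools, and control signals of many rising genes in the low part of the scale.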
